A study of Homo sapiens with 10 samples.

Results

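The genes described here are those of WNT signalling: the ligands, their receptors, secreted antagonists, cytoplasmic transducers, TCF/LEF transcription factors and feedback targets. They were chosen by symbol, as every gene in the deposited tables of the WNT, FZD, RSPO, LGR, DKK, SFRP and DVL families together with 18 named genes of the pathway. This gave 63 of the 32152 genes in the count table. Of these, 49 had enough counts to be tested.

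WNT proteins are secreted, lipid-modified ligands that PORCN acylates before they leave the cell. On the receiving cell they bind a Frizzled receptor with LRP5 or LRP6, which halts the destruction complex of APC, AXIN and their kinases, so that beta-catenin (CTNNB1) accumulates and acts with TCF/LEF factors on target genes. Some targets, such as AXIN2, NKD1, APCDD1, ZNRF3 and RNF43, feed back to dampen the pathway. In human embryonic stem cells the pathway is low in the undifferentiated state, and its activation drives exit towards primitive streak fates.

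The libraries were polyA RNA-seq of the human embryonic stem cell line WAe009-A, also known as H9. Cells labelled as knockout of KCNH2, the gene of the hERG1 potassium channel, gave 5 libraries and wild-type (WT) cells gave 5. The knockout cells were grown in mTeSR plus and the WT cells in TeSR-E8, both on Matrigel, so genotype and medium cannot be told apart in any comparison below. The titles call the edited cells a knockout while the genotype field calls them a knockdown, and the labels do not say how many clones were used or whether each library had a culture of its own, so p-values take in only the spread among these libraries, which may be technical.

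The count totals ran between 29788732 and 40587206 in knockout libraries and between 28615751 and 47319933 in WT libraries. Levels are CPM, counts per 1000000 of the TMM-scaled library size. KCNH2 itself had 11.2, 13.2, 13.2, 12.2 and 11.2 CPM in the knockout libraries and 14.9, 16.1, 14.7, 16.4 and 15.4 CPM in WT (log2 fold change -0.35, SE 0.06, adjusted p = 6.48e-04 by edgeR's quasi-likelihood test). The groups did not overlap, and the knockout mean was 0.786 times the WT mean. The labels do not give the position of the edit in the gene, so this level shows a lower transcript and not the loss of the protein. Knockout replicate 3 stood apart from the others on the second principal component (28.3% of the variance), with WT 3 and WT 2 shifted the same way, so counts below are also given without these libraries. The 8 stem cell markers examined summed to 6437 to 6829 CPM in the knockout against 5588 to 5891 CPM in WT. Of the markers of other cell types, those of definitive endoderm summed to 1.45 to 1.98 CPM in the knockout against 3.90 to 6.92 CPM in WT. The neural marker DCX averaged 5.18 CPM in the knockout against 8.27 CPM in WT, and the markers of amnion and trophoblast summed to 10.9 to 14.6 CPM in the knockout against 28.3 to 36.0 CPM in WT. The 4 fibroblast markers tested summed to 809 to 935 CPM in the knockout against 930.0 to 1005 CPM in WT. Of these COL1A1 and COL1A2 were lower in the knockout and 2 were not called, with log2 fold changes of the 4 from -0.74 to 0.21. Primitive streak markers summed to 5.35 to 6.18 CPM in the knockout against 5.44 to 6.63 CPM in WT. FOXA2, GABRP and KRT7 made up most of the endoderm and amnion differences, while GATA6, PAX6, ISL1 and TFAP2A averaged below 0.1 CPM in both groups, with a count of 0 in some libraries. The part of these marker differences in the results below was not tested, and in bulk libraries fewer cells of a type cannot be told apart from less RNA per cell.

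Of the 49 tested genes of the pathway, 7 rose in the knockout and 19 fell, at an adjusted p below 0.05. Among all 19163 tested genes 46% passed this test, 21.9% as higher and 24.1% as lower. In 6 members every knockout library lay above every WT library, and in 10 every knockout library lay below, where 16.3% and 17.7% of all tested genes did so. The tested members had a median log2 fold change of -0.07, against 0.00 over all tested genes. That median was -0.00027 with an offset for the transcript length and GC content of each gene. With no filter on low counts the same 49 members stayed at -0.07. Over all 63 members, with the scarce genes added, the median without that filter was 0.01. Changes were mostly small: 10 members passed the test with an absolute log2 fold change of at least 0.5, a size that 11.8% of all tested genes passed. With the offset 11 members were higher and 11 lower, which is 22.4% each way and near the 22.8% higher and 22% lower of all genes in that fit. Without both replicate 3 libraries 12 members (24.5%) were lower, against 20.9% of all genes, and without knockout 3, WT 2 and WT 3 10 members (20.4%) were, against 18.5% of all genes. The members' share of lower genes was thus above the background in the main fit and close to it in these 3 fits. It was also above it with limma voom (38.8% against 24.7%) and DESeq2 size factors (32.7% against 22.9%). The same held for the DESeq2 Wald test (34.7% against 18.6%) and the replicate block (36.7% against 22.4%). With any 1 library left out it was 28.6% to 40.8%, against 21.5% to 23.3% of all genes.

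**Figure D1:**
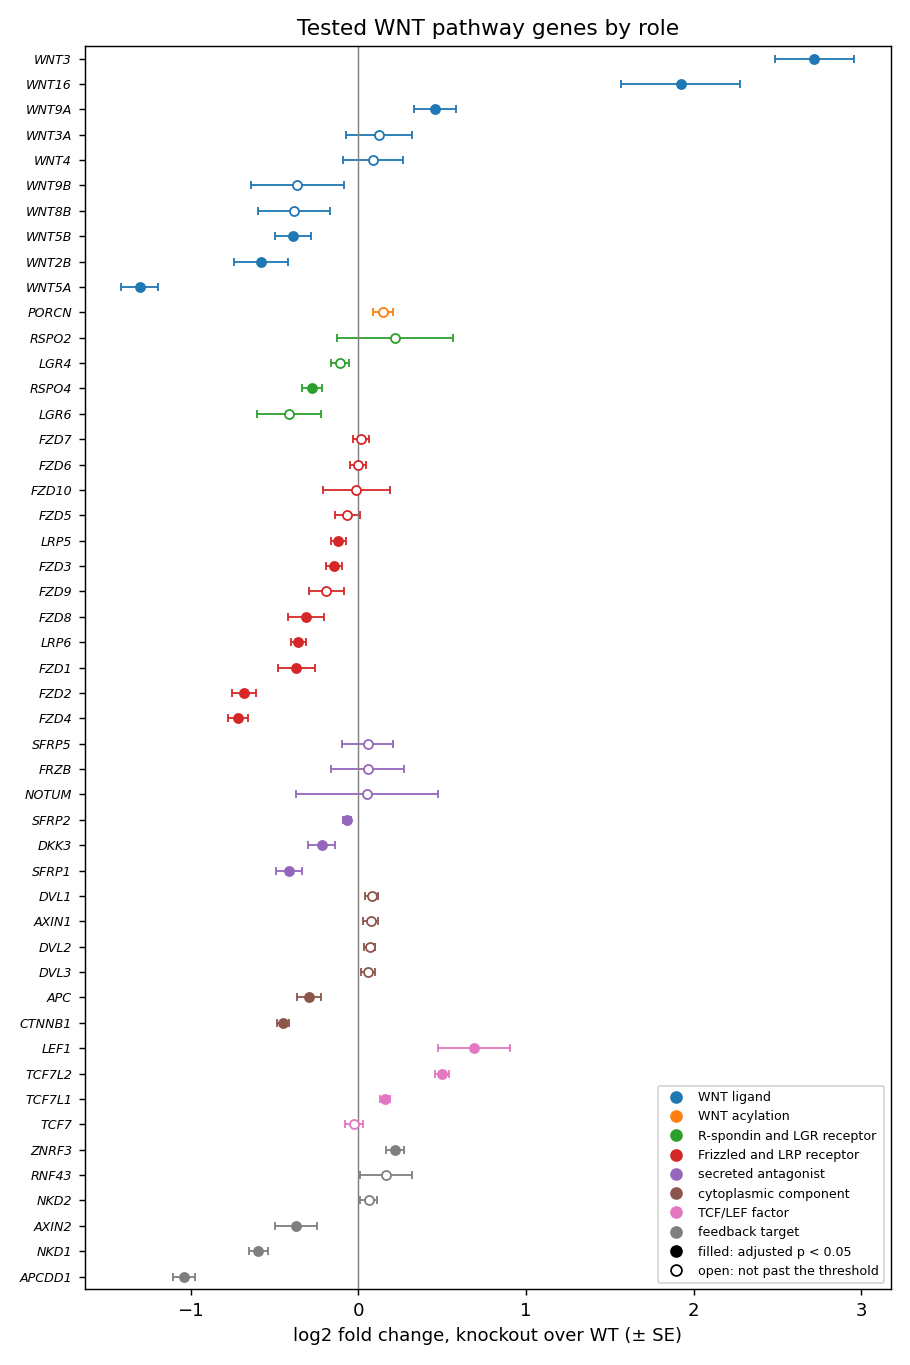
Log2 fold change of knockout over WT for the 49 tested pathway genes, with bars of 1 SE from the edgeR fit of 5 knockout and 5 WT libraries, coloured by role and ordered within it. Filled points passed an adjusted p of 0.05. WNT3 at 2.72 and WNT5A at -1.31 lie at the ends of the axis, and no Frizzled or LRP receptor is filled to the right of 0.

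The WNT ligands held the widest changes of the pathway, in both directions. WNT3, a ligand of the beta-catenin branch that starts primitive streak formation in the mouse embryo, was 6.54 times its WT level in the knockout. WNT5A, which signals mostly without beta-catenin, was 0.404 times its WT level. The bases upstream of the RefSeq starts of these genes are shown first because, of the ligands above 1 CPM on average in either group, they changed most in each direction, with APCDD1 as the feedback gene that changed most. Each is the 250 bases before the start in GRCh38.p14, on the strand of the gene.
WNT3, chr17:46818693-46818942, minus strand: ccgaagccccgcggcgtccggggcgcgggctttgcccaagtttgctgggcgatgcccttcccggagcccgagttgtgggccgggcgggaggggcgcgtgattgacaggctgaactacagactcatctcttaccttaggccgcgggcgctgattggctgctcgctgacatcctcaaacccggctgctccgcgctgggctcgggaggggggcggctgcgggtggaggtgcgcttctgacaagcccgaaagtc
WNT5A, chr3:55487307-55487556, minus strand: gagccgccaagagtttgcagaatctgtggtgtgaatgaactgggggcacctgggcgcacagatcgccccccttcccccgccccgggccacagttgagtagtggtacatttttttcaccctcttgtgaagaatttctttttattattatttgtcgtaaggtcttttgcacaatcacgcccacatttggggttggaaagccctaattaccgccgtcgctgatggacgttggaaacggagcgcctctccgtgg
APCDD1, chr18:10454385-10454634, plus strand: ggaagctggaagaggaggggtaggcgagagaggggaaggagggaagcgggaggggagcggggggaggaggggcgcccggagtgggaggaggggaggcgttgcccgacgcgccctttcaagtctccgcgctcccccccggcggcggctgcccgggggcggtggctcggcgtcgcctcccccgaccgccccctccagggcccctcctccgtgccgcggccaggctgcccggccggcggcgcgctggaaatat
For WNT3, WNT5A and APCDD1 this start lies inside the gene as GENCODE 29 bounds it, so other starts exist. The APCDD1 gene begins at 10454628 there, and the bases shown end at 10454634. The WNT3 stretch held 68.8% G+C and 26 CG dinucleotides, the APCDD1 stretch 77.2% and 29, and the WNT5A stretch 52.8% and 14, where the medians over all 35116 promoters were 58% and 11. The TCF/LEF cores CTTTGAT and CTTTGAA were sought on both strands from 250 bases before to 50 bases after each start. No such letters occurred in these windows. Over the 45 members in the table, with 1 start searched for each, they occurred in 1 (DKK1, 2.22%), against 6.86% of all promoters. That last share counts every start of a gene, so these shares are not counted alike. For members with more starts, such as WNT5A with 2 and TCF7L2 with 3, the others were not searched. Members without a promoter there, among them AXIN2, NKD1, ZNRF3, LGR5, NOTUM and SFRP1, were not searched at all. The share of 2.22% therefore leaves out several feedback targets.

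WNT3 (ENSG00000108379, chromosome 17, 46762506 to 46833154, minus strand, GRCh38) had 2.28, 3.31, 5.38, 4.92 and 3.96 CPM in the knockout libraries and 0.531, 0.475, 0.645, 0.637 and 0.748 CPM in WT. The lowest knockout library was above every WT library, although the knockout libraries differed among themselves by more than the WT ones. The log2 fold change was 2.72 (SE 0.23, adjusted p = 4.13e-06), resting on 712 counts in the knockout and 117 in WT, and it lay between 2.59 and 2.88 when any 1 library was left out. WNT3 was the only member that passed when the test asked for a log2 fold change beyond 1. The authors' deposited table gives it a smaller log2 fold change of 1.93, from a different fit.

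WNT5A (ENSG00000114251, chromosome 3, 55465715 to 55490539, minus strand) had 4.17, 2.84, 3.79, 4.31 and 3.56 CPM in the knockout against 9.92, 7.92, 9.56, 9.18 and 9.59 CPM in WT. The groups were far apart (log2 fold change -1.31, SE 0.11, adjusted p = 3.23e-06). WNT5B, the close paralog of WNT5A, also fell, with 3.81 ± 0.449 CPM in the knockout against 4.97 ± 0.617 CPM in WT (SD, n = 5 each; log2 fold change -0.39, SE 0.11, adjusted p = 0.0116 by edgeR). Its highest knockout library, at 4.30 CPM, was just under its lowest WT library, at 4.32 CPM. FBXL14, which overlaps WNT5B on the opposite strand, was lower as well, with 10.1 CPM in the knockout against 13.0 CPM in WT, and reads of the pair may be shared since whether the counting used strand is not stated.

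Of the remaining ligands, WNT16, known for its role in bone, was higher in the knockout but scarce in both groups. It had 0.302, 0.612, 1.14, 0.943 and 0.968 CPM in the knockout against 0.152, 0.145, 0.311, 0.203 and 0.238 CPM in WT (log2 fold change 1.92, SE 0.36, adjusted p = 9.75e-04 by edgeR). Knockout 1 fell within the WT range, and the other 4 knockout libraries lay above it. WNT9A rose less, with 3.69 ± 0.248 CPM in the knockout against 2.70 ± 0.529 CPM in WT (SD, n = 5 each; log2 fold change 0.46, SE 0.13, adjusted p = 0.0112 by edgeR). WNT2B had 0.974, 1.14, 0.920, 1.503 and 0.940 CPM in the knockout against 1.52, 1.67, 1.67, 1.39 and 2.01 CPM in WT. It was lower in the knockout with overlapping groups (log2 fold change -0.58, SE 0.16, adjusted p = 0.0113 by edgeR), but it did not pass with the length and GC offset (-0.40, adjusted p = 0.055), and ST7L overlaps it on the opposite strand. Without knockout 3, WT 2 and WT 3 neither WNT2B (-0.50), WNT5B (-0.26) nor WNT9A (0.37) passed. This left 2 of the 10 tested ligands higher and 1 lower, where 18.5% of all genes were called each way. WNT3A, WNT4, WNT8B and WNT9B, all under 1 CPM on average in both groups, did not pass the test. WNT9B lies next to WNT3 in the genome, and its log2 fold change was -0.36 (adjusted p = 0.315). WNT1, WNT2, WNT7A, WNT7B, WNT8A, WNT10A, WNT10B and WNT11 had too few counts to test, with totals of 3 to 70 counts over the 10 libraries.

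**Figure D2:**
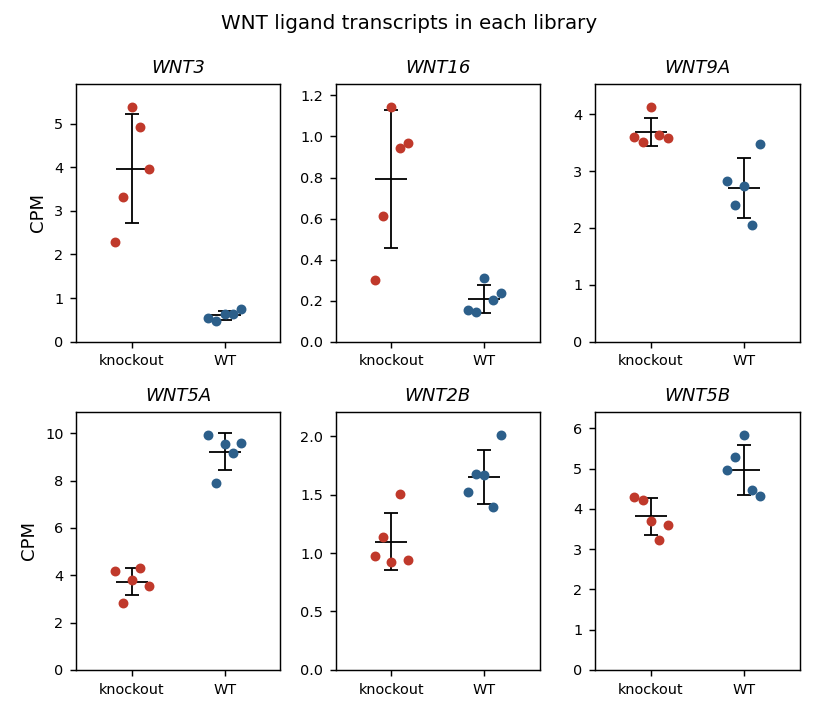
CPM of the 6 WNT ligands that passed the test, 1 point per library, with 5 knockout libraries (red, left) and 5 WT libraries (blue, right) and the mean ± SD in black; each vertical axis starts at 0. The knockout points of WNT3 all lie above the WT points and those of WNT5A all below, while for WNT16 and WNT2B a library crosses over.

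Divided by transcript length, the ligands changed in makeup and not detectably in sum. The summed level of the 18 ligands was 5.85 ± 0.332 CPM per kb in the knockout and 5.95 ± 0.396 CPM per kb in WT (SD, n = 5 each), with overlapping ranges of 5.55 to 6.38 in the knockout and 5.52 to 6.47 in WT. WNT3 made up 20.1% ± 5.38 of that sum in the knockout and 3.04% ± 0.489 in WT. WNT5A made up 10.3% ± 1.53 in the knockout and 25.2% ± 1.73 in WT. WNT5B had the largest share in both groups on this scale, 28.5% ± 4.43 in the knockout and 36.3% ± 4.02 in WT. These shares follow from the levels already given and depend on the 1 transcript length used for each gene.

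Among the R-spondins, which enhance WNT signalling through LGR receptors and the ligases ZNRF3 and RNF43, RSPO4 was lower in the knockout. It had 13.4 ± 0.925 CPM in the knockout against 16.3 ± 1.02 CPM in WT (SD, n = 5 each), and the groups did not overlap (log2 fold change -0.28, SE 0.06, adjusted p = 0.00231 by edgeR). LGR4, the LGR receptor with the most counts, had 77.5, 71.6, 64.1, 67.5 and 62.0 CPM in the knockout against 73.4, 74.1, 75.6, 74.5 and 71.8 CPM in WT. Knockout 1 was the highest of the 10 libraries and knockout 5 the lowest (log2 fold change -0.11, adjusted p = 0.112 by edgeR), and without knockout 1 LGR4 passed as lower (-0.14, adjusted p = 0.0103). LGR6 (log2 fold change -0.41, adjusted p = 0.101) and RSPO2 (0.22, adjusted p = 0.636) did not pass either. LGR5, RSPO1 and RSPO3 had too few counts to test.

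The Frizzled and LRP receptors were either lower in the knockout or did not pass: 7 of the 12 were called lower and 0 higher, where 24.1% of all genes were lower. With the length and GC offset 3 of the 12 (FZD2, FZD4 and LRP6) passed as lower, near the 22% of all genes in that fit. These were also the 3 whose groups did not overlap. Without both replicate 3 libraries the same 3 were lower, against 20.9% of all genes. Without knockout 3, WT 2 and WT 3 they were too, against 18.5% of all genes. FZD4 had 12.6, 11.2, 11.5, 10.3 and 10.9 CPM in the knockout against 19.3, 18.4, 17.9, 17.4 and 19.9 CPM in WT (log2 fold change -0.72, SE 0.06, adjusted p = 2.78e-06 by edgeR). PRSS23, which overlaps FZD4 on the opposite strand, was lower too, with 5.91 CPM in the knockout against 7.61 CPM in WT. FZD2 had 72.4, 73.7, 57.0, 58.8 and 66.0 CPM in the knockout against 101, 113, 109, 102 and 102 CPM in WT (log2 fold change -0.68, SE 0.07, adjusted p = 1.57e-05 by edgeR). Every knockout library of both receptors was well under the lowest WT library.

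LRP6, the co-receptor whose phosphorylated tail recruits AXIN, had 66.7 ± 4.47 CPM in the knockout against 85.5 ± 2.73 CPM in WT (SD, n = 5 each; log2 fold change -0.36, SE 0.04, adjusted p = 5.35e-05 by edgeR), and its log2 fold change with the offset was -0.22. FZD1 (-0.37, adjusted p = 0.0174), FZD8 (-0.31, adjusted p = 0.0289), FZD3 (-0.15, adjusted p = 0.0223) and LRP5 (-0.12, adjusted p = 0.0415) were called lower with overlapping groups. With the offset none of these 4 passed, and FZD3 turned to 0.04 (adjusted p = 0.361). None of the 4 passed without both replicate 3 libraries, or without knockout 3, WT 2 and WT 3. Leaving out 1 library ended the call of FZD8 (without knockout 3, 4 or 5 or WT 2 or 4, at -0.30 to -0.25), of LRP5 (without knockout 3, 4 or 5 or WT 2, 3 or 4, at -0.12 to -0.09) and of FZD3 (without WT 3 or 5, at -0.14 to -0.12).

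FZD7, the Frizzled receptor with the highest level here and one linked to self-renewal of human embryonic stem cells, had 235, 223, 206, 196 and 203 CPM in the knockout against 197, 213, 214, 217 and 212 CPM in WT. The groups were interleaved (log2 fold change 0.01, SE 0.05, adjusted p = 0.832 by edgeR). FZD5, FZD6, FZD9 and FZD10 did not pass the test, with log2 fold changes between -0.19 and -0.00, and of these FZD9 passed without knockout 1 (-0.27, adjusted p = 0.0258). Per transcript length, the 10 Frizzled genes summed to 110.1 ± 7.05 CPM per kb in the knockout and 131 ± 3.83 CPM per kb in WT (SD, n = 5 each), and the ranges of 103 to 119.5 in the knockout and 126 to 135 in WT did not overlap. FZD7 made up 50.01% ± 0.742 of this sum in the knockout and 41.6% ± 0.968 in WT, and FZD2 28.1% ± 1.83 in the knockout and 37.95% ± 1.09 in WT.

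**Figure D3:**
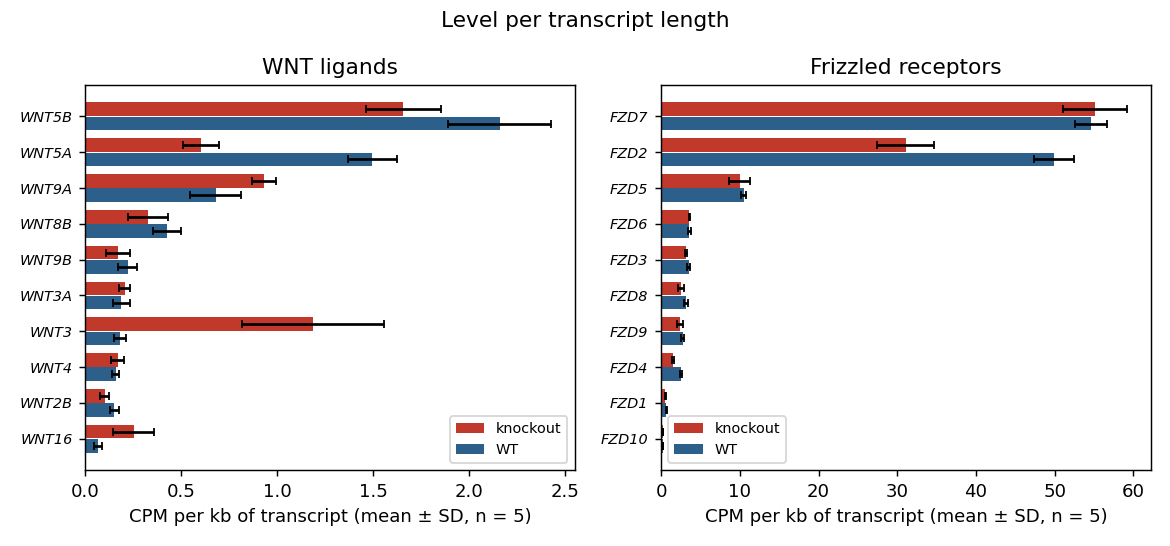
Level per transcript length (CPM per kb, mean ± SD of 5 libraries) of the WNT ligands above 0.1 CPM per kb in either group (left) and of the 10 Frizzled receptors (right), with knockout in red above WT in blue. WNT3 is the ligand whose knockout bar most exceeds its WT bar, FZD2 is shorter in the knockout, and the FZD7 bars are of like length.

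Secreted antagonists bind WNT or its receptors outside the cell. Of the 6 tested, 3 were called lower and 0 higher, where 24.1% of all genes were lower. Without knockout 3, WT 2 and WT 3, 1 of the 6 (SFRP1) was lower, where 18.5% of all genes were. SFRP1 had 673, 631, 478, 526 and 564 CPM in the knockout against 738, 752, 774, 772 and 787 CPM in WT. The knockout libraries were spread widely but all lay below WT (log2 fold change -0.41, SE 0.08, adjusted p = 9.97e-04 by edgeR). SFRP2, the antagonist with the highest level per length, had 552 ± 10.7 CPM in the knockout against 578 ± 9.82 CPM in WT (SD, n = 5 each; log2 fold change -0.07, SE 0.02, adjusted p = 0.0318 by edgeR). DKK3, a divergent member of the Dickkopf family, was at the edge of the threshold (-0.22, SE 0.08, adjusted p = 0.0452). When 1 library was left out, the call of SFRP2 ended except without knockout 2 or WT 1 (-0.07 to -0.06 where it ended). It also ended with DESeq2 size factors, the DESeq2 Wald test, no filter and the replicate block, while with the offset SFRP2 stood at -0.11 (adjusted p = 0.00137). The call of DKK3 ended when any 1 library other than knockout 1 or knockout 2 was left out (-0.23 to -0.17), with DESeq2 size factors, and with the offset (-0.21, adjusted p = 0.0556). FRZB, SFRP5 and NOTUM, the enzyme that removes the lipid of WNT proteins, did not pass, and DKK1, DKK2 and SFRP4 had too few counts to test. PORCN had 13.8, 14.2, 16.6, 13.8 and 14.2 CPM in the knockout against 13.6, 13.8, 13.1, 12.6 and 12.5 CPM in WT. Its log2 fold change of 0.15 did not pass (SE 0.06, adjusted p = 0.0643 by edgeR), but 0.18 did when knockout 1 was left out (adjusted p = 0.0495).

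Inside the cell, CTNNB1, which encodes beta-catenin, fell while the DVL genes and AXIN1 did not pass the test. CTNNB1 had 390.3, 377, 349, 364 and 345 CPM in the knockout against 477, 494, 504, 511 and 506 CPM in WT. No knockout library reached the WT range (log2 fold change -0.45, SE 0.04, adjusted p = 2.52e-06 by edgeR). APC, the scaffold of the destruction complex, had 21.7 ± 2.44 CPM in the knockout against 26.6 ± 1.49 CPM in WT (SD, n = 5 each; log2 fold change -0.29, SE 0.07, adjusted p = 0.00575 by edgeR), with overlapping groups, and it did not pass with the offset. DVL1, DVL2, DVL3 and AXIN1 had log2 fold changes of 0.06 to 0.08. With the offset these 4 passed as higher, AXIN1 at 0.13. Without knockout 1 DVL1 (0.13, adjusted p = 0.00502) and DVL3 (0.10, adjusted p = 0.0471) passed as well.

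The TCF/LEF factors were the role in which the called members were all higher: 3 of 4 passed, and their groups did not overlap. Among all tested genes 21.9% were called higher, and in 16.3% every knockout library lay above every WT library. TCF7L2 had 43.0, 43.4, 42.7, 45.6 and 46.1 CPM in the knockout against 32.2, 31.8, 31.6, 28.5 and 31.9 CPM in WT (log2 fold change 0.50, SE 0.04, adjusted p = 2.48e-06 by edgeR). TCF7L1, a repressor of WNT targets in embryonic stem cells, had 144, 154, 155, 154 and 155 CPM in the knockout against 134, 141, 135, 133 and 140.1 CPM in WT. It rose less, with every knockout library above every WT library (log2 fold change 0.16, SE 0.03, adjusted p = 9.32e-04 by edgeR). LEF1, which usually activates targets, was scarce, with 0.542 ± 0.117 CPM in the knockout against 0.338 ± 0.0600 CPM in WT (SD, n = 5 each; log2 fold change 0.69, SE 0.21, adjusted p = 0.0200 by edgeR), and it did not pass without the libraries that stood apart, nor without knockout 5 or WT 3 alone (0.59 and 0.61). TCF7 did not pass (-0.03, adjusted p = 0.721), and SKP1, an abundant gene on the opposite strand, overlaps it. Per transcript length TCF7L1 made up most of the family, 79.5% ± 0.443 in the knockout and 82.1% ± 0.462 in WT.

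The feedback targets did not move one way: 3 of 6 were lower in the knockout, 1 was higher and 2 did not pass. Among all tested genes 24.1% were lower and 21.9% higher. APCDD1, a membrane inhibitor of the WNT receptor complex (ENSG00000154856, chromosome 18, 10454628 to 10489948, plus strand), had 10.2, 10.6, 12.4, 11.8 and 12.0 CPM in the knockout against 21.6, 24.4, 24.8, 22.0 and 24.3 CPM in WT. The groups did not overlap, and the knockout mean was 0.486 times the WT mean (log2 fold change -1.04, SE 0.06, adjusted p = 3.22e-07 by edgeR). NKD1, an inhibitor that binds Dishevelled (ENSG00000140807, chromosome 16, 50548330 to 50649249, plus strand), had 12.0, 11.9, 11.4, 11.1 and 9.997 CPM in the knockout against 16.6, 18.1, 17.7, 16.1 and 16.7 CPM in WT. Again no library crossed over (log2 fold change -0.60, SE 0.06, adjusted p = 8.85e-06 by edgeR), and with the length and GC offset the change of NKD1, whose transcript is the longest of the members, was -0.31 (adjusted p = 7.62e-04).

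AXIN2, the target most often used to read the pathway, had 16.3, 14.7, 10.01, 10.9 and 11.9 CPM in the knockout against 14.1, 16.4, 16.02, 18.5 and 17.6 CPM in WT. Knockout 1 and knockout 2 lay within the WT range and the other 3 below it. Its call as lower (log2 fold change -0.37, SE 0.13, adjusted p = 0.0281 by edgeR) was lost when knockout 3, 4 or 5 or WT 4 or 5 was left out (-0.35 to -0.30), and with the offset (-0.27, adjusted p = 0.0937). ZNRF3, a ligase that removes Frizzled receptors from the membrane, had 34.0, 33.4, 39.3, 39.4 and 37.1 CPM in the knockout against 31.7, 33.1, 31.8, 29.4 and 31.3 CPM in WT. It was higher in the knockout (log2 fold change 0.22, SE 0.05, adjusted p = 0.0052 by edgeR), although knockout 2 was only just above the highest WT library, and with the offset it stood at 0.39. Its paralog RNF43 had 4.06 to 7.17 CPM in the knockout against 4.48 to 5.64 CPM in WT (log2 fold change 0.16, adjusted p = 0.415), and shares its strand and part of its span with SUPT4H1. NKD2 did not pass (0.06, adjusted p = 0.373).

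**Figure D4:**
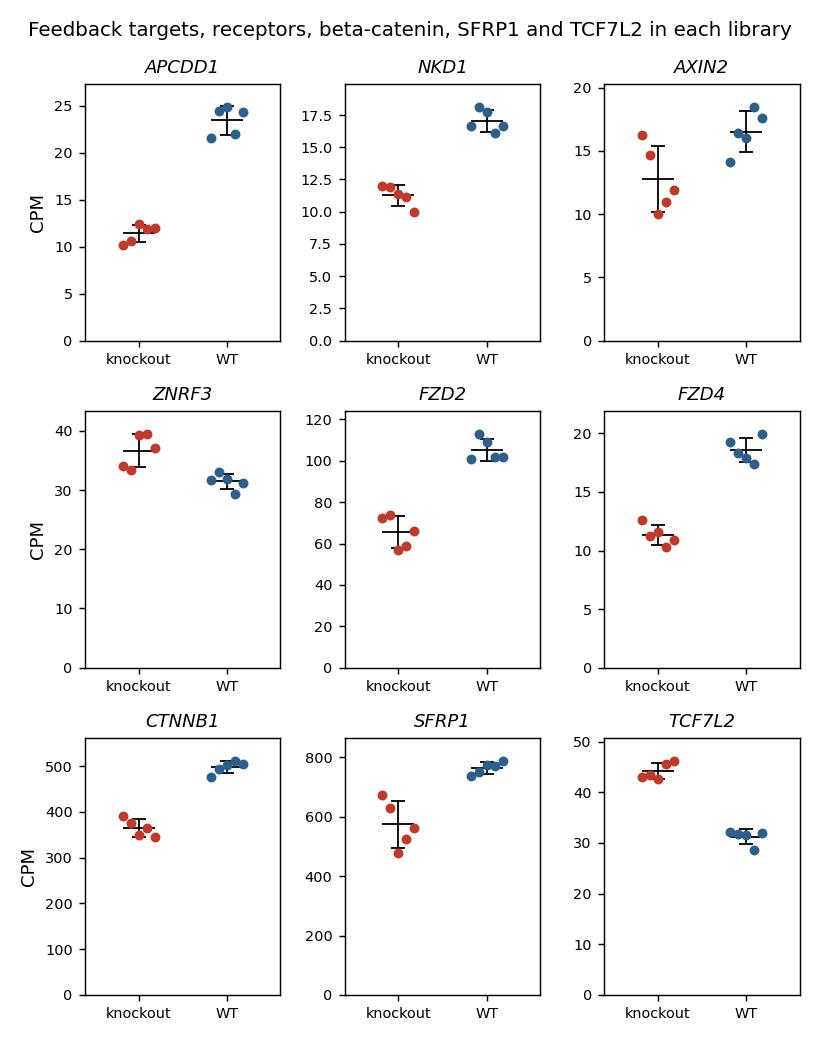
CPM of 9 pathway genes, 1 point per library, with 5 knockout libraries (red, left) and 5 WT libraries (blue, right) and the mean ± SD in black; each vertical axis starts at 0. The groups are apart for APCDD1, NKD1, FZD2, FZD4, CTNNB1, SFRP1 and TCF7L2, close for ZNRF3, and overlapping for AXIN2, where knockout 1 and 2 sit among the WT libraries.

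Genes of the pathway outside the 63 were grouped in 6 lists of 119 genes in all, of which 110 were tested. Of these, 26 were higher and 38 lower in the knockout (58.2%, where 46% of all genes passed). Among all genes 21.9% were higher and 24.1% lower, or 22.8% and 22% with the length and GC offset. Of the 18 genes listed under the destruction complex and kinases, 3 were higher and 5 lower, or 8 higher and 4 lower with the length and GC offset. The list also held other regulators, among them CTNNBIP1, CTBP1 and CTBP2, and CTNNBIP1 was 1 of the 5 lower. In that list AMER1, which tethers APC, had 23.1 ± 2.65 CPM in the knockout against 36.2 ± 1.79 CPM in WT (SD, n = 5 each; log2 fold change -0.65, adjusted p = 2.46e-05 by edgeR). USP34, a deubiquitinase of AXIN, was lower (-0.26, adjusted p = 1.32e-04, and -0.11 with the offset) and the kinase CSNK1E higher (0.39, adjusted p = 3.26e-04). Of 17 nuclear cofactors of beta-catenin, 4 were higher and 6 lower, or 8 and 3 with the offset. TBL1X, which bridges corepressors and beta-catenin, had 78.9 ± 1.38 CPM in the knockout against 49.8 ± 2.15 CPM in WT (SD, n = 5 each; log2 fold change 0.66, adjusted p = 4.18e-08 by edgeR). The Groucho corepressor TLE2 was lower (-0.77, adjusted p = 1.10e-06), as was the histone demethylase KDM2A (-0.17, adjusted p = 7.05e-04), although KDM2A stood at 0.00 with the length and GC offset.

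Among planar polarity and noncanonical receptor genes, 12 of 22 were lower and 4 higher, with a median log2 fold change of -0.19, where 24.1% of all genes were lower. With the offset 7 were lower, where 22% of all genes were, and the median was -0.04. ROR2, a receptor of WNT5A, had 5.79 ± 0.412 CPM in the knockout against 9.09 ± 0.540 CPM in WT (SD, n = 5 each; log2 fold change -0.65, SE 0.07, adjusted p = 1.59e-05 by edgeR). The co-receptor PTK7 was lower by less (-0.21, adjusted p = 1.80e-05, and -0.12 with the offset), and FUZ, a planar polarity effector of ciliogenesis, was higher (0.38, adjusted p = 6.16e-06). In the list of other secreted or membrane inhibitors 7 of 16 were lower and 3 higher, where 24.1% and 21.9% of all genes were. The median was -0.23, or -0.14 with the offset. The list also held genes not known as WNT inhibitors, among them CTHRC1 (of the 7 lower) and BAMBI (of the 3 higher). SHISA2, which holds Frizzled and FGF receptors in the endoplasmic reticulum in Xenopus, had 15.8 ± 1.69 CPM in the knockout against 29.1 ± 1.63 CPM in WT (SD, n = 5 each; log2 fold change -0.88, SE 0.07, adjusted p = 2.12e-06 by edgeR). IGFBP4, an IGF-binding protein that can also bind Frizzled and LRP6 (-0.38, adjusted p = 1.82e-06), and the membrane glycoprotein TPBG (-0.35, adjusted p = 1.21e-05) were lower too. In the secretion and co-receptor list 2 of 14 were higher and 5 lower, or 4 and 3 with the offset. Among all genes 21.9% were higher and 24.1% lower, or 22.8% and 22% with the offset. SNX3, which works with the retromer that recycles the WNT carrier WLS, was higher (0.34, adjusted p = 2.30e-05, and 0.22 with the offset), while the glypican GPC3 (-0.47, adjusted p = 5.30e-05) and ADGRA2, a co-receptor for WNT7 ligands (-1.003, adjusted p = 3.29e-05), were lower.

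Of the 23 tested genes of the list of other beta-catenin targets, 10 were called higher and 3 lower, where 21.9% and 24.1% of all genes were, and their median was 0.13, or 0.20 with the offset. CYP26A1, which breaks down retinoic acid, had 10.04 ± 0.546 CPM in the knockout against 4.93 ± 0.445 CPM in WT (SD, n = 5 each; log2 fold change 1.02, SE 0.07, adjusted p = 1.04e-06 by edgeR). The hyaluronan receptor CD44 (-0.59, adjusted p = 6.07e-05) and the cyclin CCND1 (-0.28, adjusted p = 7.52e-05, and -0.18 with the offset) were lower. These genes were named for the smallest p, and log2 fold changes in the list ran from -0.78 to 1.74. The early primitive streak genes TBXT and EOMES, with SP5 and CDX1, were among the 9 targets with too few counts to test.

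**Figure D5:**
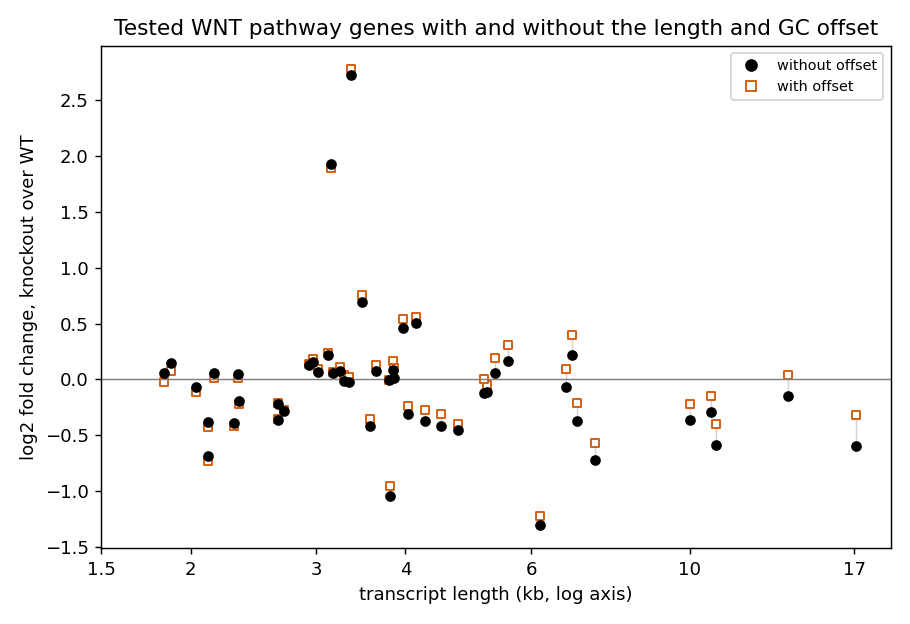
Log2 fold change of knockout over WT for the 49 tested pathway genes against transcript length (kb, log axis), from the fit without the offset (black circles) and with an offset for transcript length and GC content (open squares), joined for each gene by a grey line. NKD1, the longest, lies at -0.31 with the offset and -0.60 without, while WNT3 stays the highest and WNT5A the lowest.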

How the data were processed

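PolyA RNA of 5 knockout and 5 WT libraries was read on a NovaSeq-6000 in 150 paired-end cycles (per the labels' protocols). The authors deposited raw counts per gene, with no normalization. R 3.6.3, DESeq2 and hg38 are named in the submitters' processing notes, while the aligner, counter, gene annotation and use of strand are not stated. Their deposited table comparing the groups has, for each gene, the mean normalised signal, the log2 fold change and its SE (log2 too), the score obtained by dividing these, and raw and adjusted p-values. That table gave gene symbols and the fold change credited to it.

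The pathway genes and all other lists were chosen with earlier results of these data known. The test was edgeR 4.0.16's quasi-likelihood test, run in R 4.3.3 (TMM scaling, filterByExpr, glmQLFit, glmQLFTest, group as the term), adjusted by Benjamini-Hochberg over 19163 genes, with a threshold of 0.05. Full values are given for members with an absolute log2 fold change of at least 0.5 and at least 1 CPM in the higher group, for WNT3, APCDD1 and NKD1, and for the member of each role with the highest mean CPM; other members given in full were chosen after their values were seen. Up to 3 genes with the smallest p are named from each other list.

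Positions and lengths (longest basic protein-coding transcript) came from GENCODE 29 (GRCh38), and promoters from RefSeq (GRCh38.p14). A count of 0 allows up to 3 counts, or 0.0634 to 0.105 CPM. Floors cover counting error only. The chi-square per degree of freedom between libraries of a group lay between 3.59 and 26.2, so none was a repeat within sampling noise. The offset modelled how log2 CPM varied with transcript length and GC in each library (natural splines, 5 degrees of freedom). The fitting steps were tested on simulated data. The alternatives were voom (limma 3.58.1), size factors and the Wald test of DESeq2 1.42.0, the replicate block, no filter or one requiring 1 CPM in 5 libraries, testing beyond a log2 fold change of 1, that offset, and leaving out libraries. The full sum of the neural marker list is not reported here.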

Additional observations from a re-analysis of the deposited data

Results flagged for a closer look

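In 6 of the 98 groups of 5 libraries (49 tested genes in each of both groups), 1 library lay far from the other 4 by Dixon's criterion, where chance gives about 1 in 20 groups, or 4.9. PORCN in knockout 3 stood at 16.6 CPM, with the other knockout libraries at 13.8 to 14.2 CPM. WNT9A in knockout 3 stood at 4.13 CPM, with the others at 3.51 to 3.64 CPM. FZD1 in knockout 1 stood at 4.57 CPM, within the WT range, with the others at 3.22 to 3.51 CPM. TCF7L1 in knockout 1 stood at 144 CPM, with the others at 154 to 155 CPM. FZD7 in WT 1 stood at 197 CPM, with the other WT libraries at 212 to 217 CPM. TCF7L2 in WT 4 stood at 28.5 CPM, with the others at 31.6 to 32.2 CPM. The causes were not tested.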

How the results depend on the processing

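Of the 26 called pathway genes, 14 were called in the same direction in every alternative that tested them other than the test against a log2 fold change of 1: WNT3, WNT5A, WNT16, FZD2, FZD4, LRP6, RSPO4, SFRP1, CTNNB1, TCF7L1, TCF7L2, APCDD1, NKD1 and ZNRF3. How many of all called genes stayed called through the same alternatives was not counted, so the 14 cannot be set beside a background. Against a log2 fold change of 1, 1 pathway gene passed as higher and 0 as lower, with 83 and 93 among all genes. In each of the 6 other lists 0 passed in either direction. With the length and GC offset the counts were 11 higher and 11 lower for the pathway genes and 8 higher for the destruction complex list. They were 8 higher and 3 lower for nuclear cofactors, 4 higher and 3 lower for secretion and co-receptors, and 7 lower for planar polarity. Of all genes 22.8% were higher and 22% lower in that fit. Without both replicate 3 libraries 12 pathway genes were lower and 1 gene of the list of other inhibitors was higher. Without knockout 3, WT 2 and WT 3 10 pathway genes were lower. The median log2 fold change of the pathway genes was -0.12 with a filter of 1 CPM in 5 libraries, which tests fewer of them, and -0.00027 with the offset. The causes of the other shifts were not tested.

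Leaving out 1 library gave 6 to 10 higher and 14 to 20 lower pathway genes, 3846 to 4537 higher and 4150 to 4517 lower genes of all, and a median of -0.09 to -0.05. For the other lists it gave 3 to 4 higher and 4 to 6 lower (destruction complex), 3 to 5 and 4 to 7 (cofactors), 2 and 5 to 6 (secretion), 3 and 7 (inhibitors), 3 to 5 and 12 (planar polarity) and 8 to 10 and 3 to 4 (targets). Signs turned for FZD3 and KDM2A, which were called lower without the offset, and for genes that were not called. With the offset FZD3 stood at 0.041, FZD5 at 0.096, FZD10 at 0.036, TCF7 at 0.024, SFRP5 at -0.020 and KDM2A at 0.0030. FZD6 stood at 0.0066 with DESeq2 size factors, 0.0099 in the DESeq2 Wald test, 0.0022 with voom and 0.0043 without both replicate 3 libraries. With voom FRZB stood at -0.025 and NOTUM at -0.042. NOTUM stood at -0.34 without both replicate 3 libraries, and without knockout 3, WT 2 and WT 3 NOTUM stood at -0.60, FZD10 at 0.090 and WNT4 at -0.037. Without 1 library FRZB ranged from -0.071 to 0.22, FZD10 from -0.11 to 0.12, FZD6 from -0.036 to 0.022, FZD7 from -0.011 to 0.042, NOTUM from -0.37 to 0.26, SFRP5 from -0.019 to 0.14 and WNT4 from -0.024 to 0.16.

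Same-numbered libraries correlated in their deviations from the group means at 0.173, -0.157, 0.698, 0.198 and 0.176, and 2 of 10 libraries correlated best with their own number, so the numbers were not taken to pair libraries. With the replicate block 7 pathway genes were higher and 18 lower, and 4258 and 4300 of all genes.

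Genotype and medium cannot be told apart, the counts carry no known strand, and scarce genes rest on few counts: the SEs of WNT9B (0.28) and NOTUM (0.42) exceed the log2 fold changes at which FZD3 and LRP5 were called.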

Other observations

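Of the 14 tested genes within 500 kb of WNT3, 1 was higher (NSF, log2 fold change 0.12) and 3 were lower in the knockout, or 28.6% called where 46% of all tested genes were, with a median log2 fold change of -0.05; WNT3 itself was not counted among them. Among the 32 tested pathway genes of at least 5 CPM, 28 had a larger SD of log2 CPM in the knockout than in WT. That is 87.5%, against 68.9% of the 12211 tested genes at that level. The median SD of these pathway genes was 0.106 in the knockout and 0.064 in WT. Over all genes at that level it was 0.081 in the knockout and 0.059 in WT. These SDs take in knockout 3, which stood apart on the second principal component, and were not computed without it. The authors' deposited table gave the same sign of log2 fold change for 48 of the 49 tested pathway genes and for the 26 that passed here, and 23 had an adjusted p under 0.05 in it. Both sets of values come from the same libraries.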
